A study of Mus musculus with 12 samples.

Results

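The contractile genes of the myofibroblast were examined in cultured mouse cardiac fibroblasts with and without Smad7. The 10 genes Acta2, Actg2, Tagln, Cnn1, Cnn2, Cald1, Tpm1, Tpm2, Myl9 and Mylk were taken by symbol from the 35275 genes of the deposited read count table, which held 1 entry for each, and all 10 passed the filter on low counts that left 15150 genes for testing. Fibroblasts came from the hearts of 12-week-old C57BL/6 mice with a floxed Smad7 gene and were used at passage 2. All 12 libraries came from cells infected with an adenovirus for 48 hours at 100 MOI. In the 2 control groups the virus is given as expressing GFP in the sample labels and as empty in the paper. The virus of the 2 Smad7-KO groups expressed Cre, so Smad7 loss was produced in culture and depended on the infected share of the cells. None of the 12 libraries came from cells given Cre without a floxed Smad7 gene. An effect of Cre or of the virus therefore cannot be told apart from Smad7 loss. In each of these pairs of groups, 3 libraries were unstimulated and 3 came from cells given TGF-β1 at 10 ng/ml. The labels disagree on the length of stimulation, which is given as 2 hours with the sample characteristics but as 4 hours with the treatment protocol. The 3 libraries of a group are described as independent samples, with no statement of whether they came from separate animals, so p values measure the spread between these samples.

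Fibroblasts become myofibroblasts by assembling actin stress fibers, and α-smooth muscle actin, the product of Acta2, is the protein by which these cells are usually recognized. Contraction of the fibers depends on actin, on myosin whose light chains are phosphorylated by myosin light chain kinase, and on tropomyosin, calponin and caldesmon, which bind actin filaments. Many of these genes carry CArG boxes, the DNA element bound by serum response factor (SRF). Among its cofactors, the myocardin-related transcription factors (MRTFs) enter the nucleus when monomeric actin is used up. TGF-β is the best known inducer of this program in fibroblasts, and Smad7 is an inhibitory Smad that dampens TGF-β signaling.

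The promoters of 4 genes are shown, those with an exact CArG box (Cnn2 and Myl9) and those of Acta2 and Tpm1, which hold near matches and whose transcripts are among those that differed between the groups. RefSeq gave 9 promoters of 300 bases, each from 250 before to 50 after an annotated start on build GRCm38.p6, for 8 of the 10 genes. Cald1 had more than 1 promoter, and a Cald1 promoter and that of Mylk lie inside the interval of the gene. Capitals mark each match to the CArG box with at most 1 mismatch, searched on both strands.
Acta2, chr19:34255324-34255623, minus strand: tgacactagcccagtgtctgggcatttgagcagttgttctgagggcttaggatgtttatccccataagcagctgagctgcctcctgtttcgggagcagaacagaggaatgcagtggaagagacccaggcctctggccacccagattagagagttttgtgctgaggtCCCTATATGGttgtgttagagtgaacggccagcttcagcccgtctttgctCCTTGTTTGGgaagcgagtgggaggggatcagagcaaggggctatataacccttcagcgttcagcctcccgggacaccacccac
Cnn2, chr10:79988350-79988649, plus strand: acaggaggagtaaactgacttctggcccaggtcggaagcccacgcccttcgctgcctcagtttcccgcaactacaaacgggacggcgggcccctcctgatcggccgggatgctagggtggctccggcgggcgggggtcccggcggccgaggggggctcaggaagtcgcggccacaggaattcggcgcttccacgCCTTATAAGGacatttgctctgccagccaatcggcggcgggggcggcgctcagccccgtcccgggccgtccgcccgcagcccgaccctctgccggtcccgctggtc
Tpm1, chr9:67049164-67049463, minus strand: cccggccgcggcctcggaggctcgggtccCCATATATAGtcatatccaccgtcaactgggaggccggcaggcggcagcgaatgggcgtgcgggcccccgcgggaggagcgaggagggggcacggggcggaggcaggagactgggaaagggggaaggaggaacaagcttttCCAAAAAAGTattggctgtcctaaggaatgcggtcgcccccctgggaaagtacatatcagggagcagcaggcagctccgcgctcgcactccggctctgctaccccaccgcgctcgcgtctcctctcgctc
Myl9, chr2:156775214-156775513, plus strand: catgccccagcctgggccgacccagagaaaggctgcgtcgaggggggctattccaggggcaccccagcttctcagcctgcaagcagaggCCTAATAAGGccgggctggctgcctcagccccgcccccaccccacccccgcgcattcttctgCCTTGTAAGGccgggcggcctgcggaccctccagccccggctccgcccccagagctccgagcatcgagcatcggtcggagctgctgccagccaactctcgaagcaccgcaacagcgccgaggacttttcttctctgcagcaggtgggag
Exact CArG boxes were found in Cnn2, from position -56 to -47 relative to the start, and in Myl9, from -161 to -152, and in 535 of 32851 mouse promoters of the same length (1.63%). Both matches in the Acta2 promoter, at -84 to -75 and at -34 to -25, had 1 mismatch, as did both in Tpm1, at -221 to -212 and at -80 to -71, the second in Myl9 and 1 in Cald1. With at most 1 mismatch allowed, 5 of these 8 genes and 5 of their 9 promoters held a match, against 21.1% of all promoters. The promoters of Tpm2, Cnn1 and Mylk held none, while Tpm2 is among the genes whose transcripts differed between the groups. The letters of the MCAT element (CATTCC) stood in Acta2, Tpm1, Cald1 and Mylk, and in 14.7% of promoters. CAGAC, the core of the Smad-binding CAGA box, stood in Acta2, Cald1, Cnn1 and Mylk, and in 49.6%. A match is a string of letters and not a measured binding site.

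On the scale of FPKM, which divides reads by gene length and library total, the members fell into an abundant and a scarce set. Tagln, encoding the actin-binding protein transgelin, averaged 344 FPKM over the 12 libraries (222 to 592) and ranked 166 among all genes. Acta2 averaged 316 FPKM (218 to 458) and Cald1, encoding caldesmon, averaged 250 FPKM (158 to 341). The ranges of these 3 genes overlapped and their order changed between libraries, so it was not distinct from the spread between libraries. Tpm1, the α-tropomyosin gene, averaged 111 FPKM (85.4 to 154) and Cnn2, encoding the non-muscle calponin 2, averaged 91.8 FPKM (72.6 to 120). Their ranges overlapped, but Tpm1 lay above Cnn2 in each of the 12 libraries. Myl9, a regulatory light chain of smooth muscle and non-muscle myosin, and Tpm2, the β-tropomyosin gene, averaged 47.7 and 47.4 FPKM. The genes most particular to differentiated smooth muscle were scarce. Cnn1, encoding calponin 1, averaged 3.20 FPKM with 124 to 294 reads per library, Actg2, the enteric γ-actin gene, averaged 1.08 FPKM with 11 to 55 reads, and Mylk, encoding myosin light chain kinase, averaged 0.493 FPKM with 54 to 144 reads. Taken as a sum, the 10 genes made up 0.236 to 0.388% of all reads in a library.

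The libraries had 19056916 to 25371321 reads on genes (median 22660845). Smad7 itself averaged 74.4 ± 2.94 CPM (SD, n = 3) in unstimulated control and 29.4 ± 1.48 in unstimulated Smad7-KO libraries, and with TGF-β1 it averaged 146 ± 4.24 and 76.8 ± 5.89. CPM here are reads scaled to a common library total and normalized by TMM, which sets libraries level on the bulk of their genes. Unstimulated control 2 stood apart in how short and long genes were balanced. This balance is the median log2 level of the shortest tercile of genes minus that of the longest, each gene taken relative to its mean over libraries, and it was 1.09 in unstimulated control 2, against 0.41 in TGF-β1 control 2 and 0.39 in unstimulated control 1, the next highest. In the 6 Smad7-KO libraries it lay between -0.37 and -0.06, and in the unstimulated controls it spread from -0.24 to 1.09. Since most members are short, fold changes are given below both as fitted and with each library's trend on gene length removed.

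**Figure D1:**
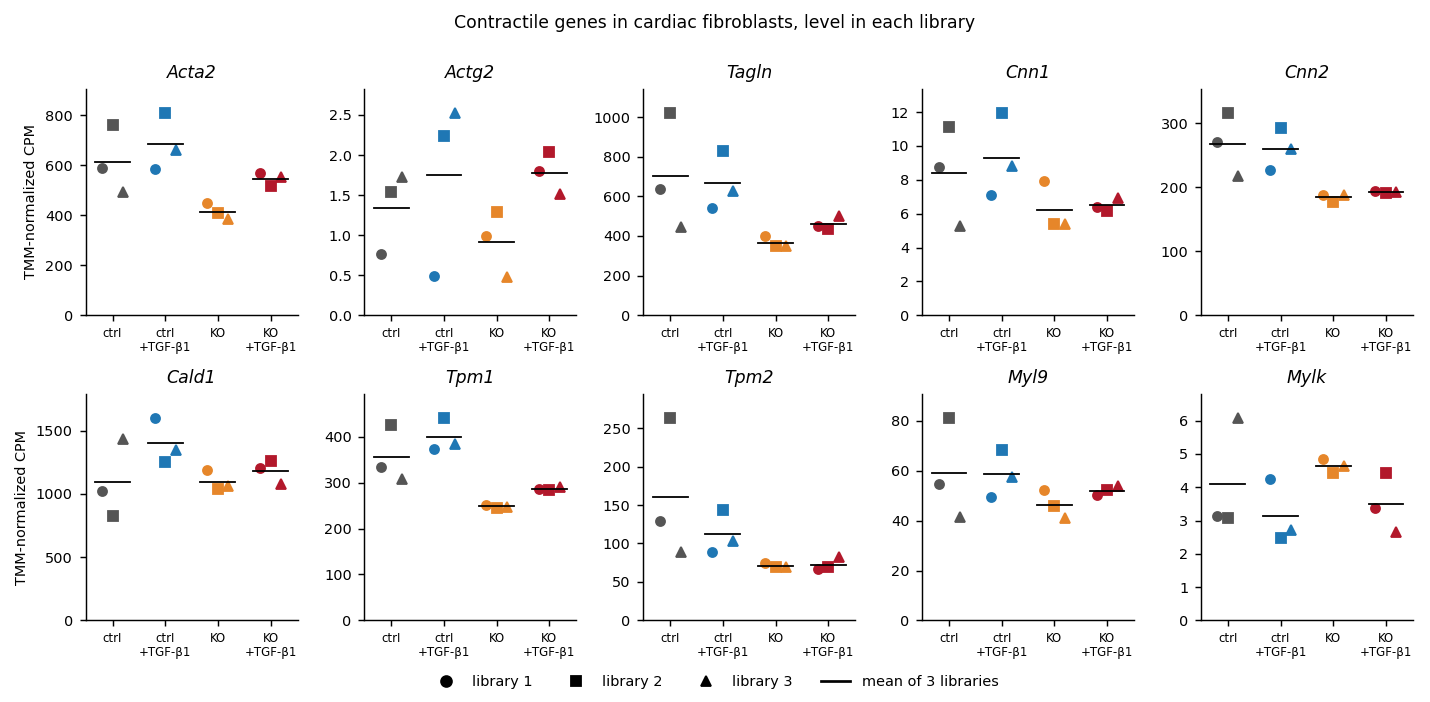
TMM-normalized CPM of the 10 contractile genes in each of the 12 libraries, 1 panel per gene with its own axis from 0, by group (ctrl, control; KO, Smad7-KO), with symbols for library numbers and a bar at the mean. Tpm1, Tpm2, Tagln, Acta2 and Cnn2 lay lower in every unstimulated Smad7-KO library than in any unstimulated control library.

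In unstimulated cells, before any added TGF-β1, 5 of the 10 contractile genes were lower in Smad7-KO than in control fibroblasts and none was higher. The genes were Tpm2, Tagln, Acta2, Cnn2 and Tpm1, and their log2 fold changes ran from -1.17 to -0.52. Of all tested genes 25.8% were called in this comparison and 13.7% were called lower, and the median log2 fold change was -0.53 for the members and -0.02 for all genes. The same 5 genes had no overlap between the groups, which was also so, in the lower direction, for 19.2% of all genes.

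Acta2 (chr19:34241090-34255336, minus strand) had 588, 761 and 491 CPM in the 3 unstimulated control libraries and 447, 410 and 385 CPM in the unstimulated Smad7-KO libraries. All Smad7-KO values lay below the lowest control value, and the control values spread far more. The log2 fold change was -0.57 ± 0.16 (SE; adjusted p = 0.030 by edgeR's quasi-likelihood test). Tagln (chr9:45929628-45936058, minus strand) had 636, 1022 and 447 CPM in control and 400, 351 and 349 CPM in Smad7-KO libraries. Here the highest value again came from unstimulated control 2. Its log2 fold change was -0.94 ± 0.25 (adjusted p = 0.023).

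The tropomyosins bind along the actin filament and regulate the access of myosin to it. Tpm1 (chr9:67022590-67049406, minus strand) had 334, 425 and 308 CPM in control and 252, 245 and 247 CPM in Smad7-KO libraries, a log2 fold change of -0.52 ± 0.12 (adjusted p = 0.013). Tpm2 (chr4:43514711-43523765, minus strand) had 129, 263 and 89.2 CPM in control and 74.9, 69.9 and 68.9 CPM in Smad7-KO libraries. That was the largest fitted difference among the members, -1.17 ± 0.32 (adjusted p = 0.024), and 1 library set much of its size. Without unstimulated control 2 it was -0.61 (adjusted p = 0.040), that of Tagln was -0.56 (adjusted p = 0.040), and that of Acta2, at -0.38, was no longer called (adjusted p = 0.059).

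Cnn2 (chr10:79988584-79996062, plus strand) had 271, 316 and 217 CPM in control and 188, 177 and 187 CPM in Smad7-KO libraries, a log2 fold change of -0.54 ± 0.14 (adjusted p = 0.017). Calponins bind actin and damp the activity of myosin on it. The related Cnn1 had 8.78, 11.1 and 5.27 CPM in control and 7.93, 5.41 and 5.38 CPM in Smad7-KO libraries, so that the groups overlapped. Its log2 fold change was -0.43 ± 0.28 (adjusted p = 0.25).

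The 4 other members did not pass the test. Cald1 had 1025, 824 and 1432 CPM in control and 1185, 1036 and 1063 CPM in Smad7-KO libraries, a log2 fold change of 0.00 with a 95% interval of -0.39 to 0.39. Unstimulated control 2, the highest of these 6 libraries for Acta2, Tagln, Tpm1, Tpm2 and Cnn2, was the lowest for Cald1, which has a gene length of 4777 bases in the deposited table. Myl9 had 54.9, 81.1 and 41.5 CPM in control and 52.3, 45.7 and 41.1 CPM in Smad7-KO libraries, with a log2 fold change of -0.35 ± 0.21 (adjusted p = 0.21). Actg2 (-0.55 ± 0.56) and Mylk (0.17 ± 0.30) had 95% intervals from -1.77 to 0.68 and from -0.49 to 0.83.

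With the gene length trend removed the same 5 genes stayed below control at an adjusted p of 0.05 or less, with smaller differences. The log2 fold changes were then -0.26 for Acta2, -0.53 for Tagln, -0.42 for Cnn2, -0.49 for Tpm1 and -0.94 for Tpm2, the median of the members was -0.26, and 29.4% of all genes were called. Tpm1 moved least, and Myl9 changed sign to 0.16 (adjusted p = 0.22). Without both control libraries numbered 2, the same 5 members were called, with log2 fold changes from -0.62 to -0.38, and 3519 of 15403 genes in all. The number of calls moved with the libraries fitted, and so did the number over all genes. Fitted on only the 6 unstimulated libraries, edgeR called 0 of the members and 660 of 14524 genes in all. The adjusted p values of these 5 genes in that fit were 0.105 to 0.123. DESeq2 on the same libraries called 4 members and 2282 genes in all, and on all libraries 5 members and 5154 genes. Leaving out 1 library left 2 calls without unstimulated control 1 (2006 of 15518 genes called in all), 1 without unstimulated Smad7-KO 1 (1652 of 15528) and 0 without unstimulated Smad7-KO 2 (1536 of 15508) or 3 (1535 of 15504). Without unstimulated control 3 there were 7, with Cnn1 and Myl9 added, when 7979 of 15499 genes were called in all.

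**Figure D2:**
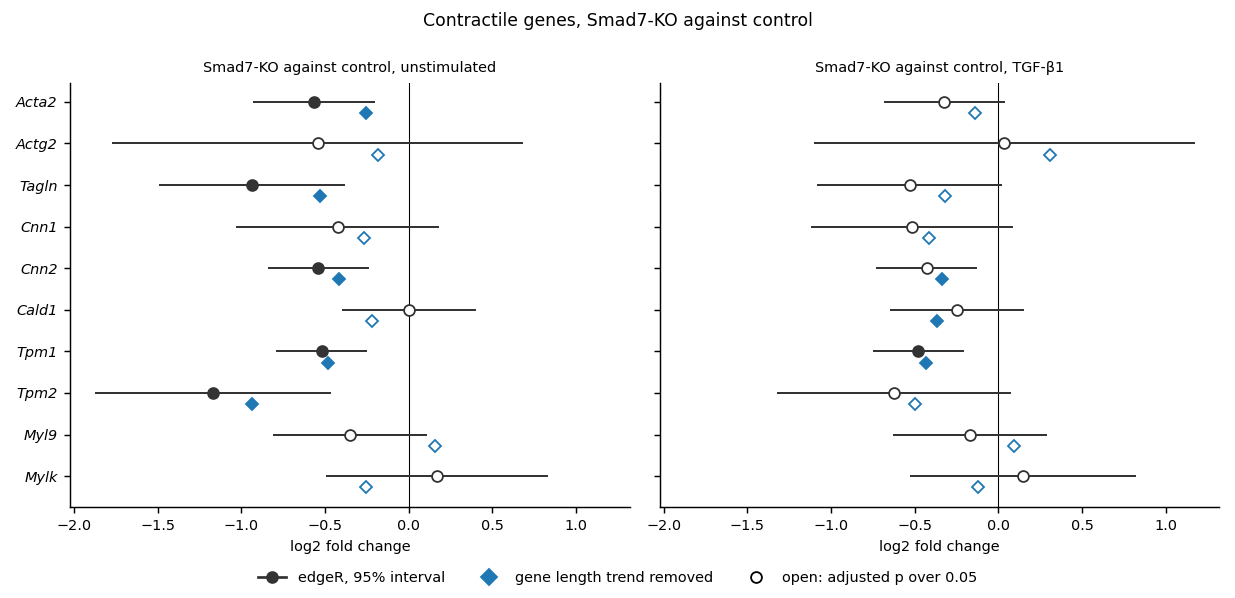
Log2 fold changes of the 10 contractile genes in Smad7-KO against control fibroblasts, unstimulated (left) and with TGF-β1 (right). Circles are edgeR estimates with 95% intervals, diamonds the estimates with the gene length trend removed, and filled symbols have an adjusted p of 0.05 or less. On the left the circles of 5 genes are filled at -1.17 to -0.52, as are their diamonds, and on the right the circle of Tpm1 is filled, at -0.48, beside the diamonds of Tpm1, Cnn2 and Cald1.

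With TGF-β1 present, 1 of the 10 contractile genes, Tpm1, was lower in Smad7-KO than in control fibroblasts at the threshold. In all tested genes 13% were called in this comparison, 7.23% as lower. For 6 members, Acta2, Tagln, Cnn1, Cnn2, Tpm1 and Tpm2, every Smad7-KO library lay below every control library, as for 23% of all genes. The median log2 fold change was -0.38 for the members and -0.02 for all genes.

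Tpm1 had 373, 440 and 383 CPM in TGF-β1 control libraries and 286, 283 and 290 CPM in the stimulated Smad7-KO libraries, a log2 fold change of -0.48 ± 0.12 (adjusted p = 0.025). The Smad7-KO values lay close together and well below the lowest control value. Cnn2 had 227, 292 and 260 CPM in control and 194, 191 and 193 CPM in Smad7-KO libraries, and its difference of -0.43 ± 0.13 missed the threshold (adjusted p = 0.059). Acta2 had 583, 809 and 658 CPM against 568, 518 and 553 CPM, and its difference was -0.32 ± 0.16 (adjusted p = 0.22). Although these groups did not overlap, the lowest control and the highest Smad7-KO library of Acta2 were close together. Tagln had 542, 831 and 625 CPM against 450, 433 and 500 CPM, with a difference of -0.53 ± 0.25 (adjusted p = 0.19). For Tpm2 the values were 89.4, 144 and 103 CPM against 66.3, 69.2 and 82.4 CPM, with a difference of -0.62 ± 0.32 (adjusted p = 0.22).

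Cald1 had 1598, 1253 and 1345 CPM in TGF-β1 control and 1201, 1257 and 1081 CPM in stimulated Smad7-KO libraries, a log2 fold change of -0.25 ± 0.18 (adjusted p = 0.38). With the gene length trend removed it was -0.37 (adjusted p = 0.0087), and Cnn2 was then also called at -0.34 (adjusted p = 0.016) beside Tpm1 at -0.43 (adjusted p = 0.0064), against 23.2% of all genes. Cnn1 (-0.52), Myl9 (-0.17), Actg2 (0.04) and Mylk (0.15) did not pass in either fit. DESeq2 and edgeR on only the 6 stimulated libraries each called 4 members, Tagln, Cnn2, Tpm1 and Tpm2, in edgeR among 4453 of 14481 genes called, a share near that of the members. Without both control libraries numbered 2, 2 members were called, Cnn2 and Tpm1, and 2763 of 15403 genes in all. The call of Tpm1 was lost without TGF-β1 control 2 (-0.39, adjusted p = 0.13), without TGF-β1 control 3 (-0.51, adjusted p = 0.059), and without any 1 of the TGF-β1 Smad7-KO libraries, with adjusted p values from 0.075 to 0.094. Without TGF-β1 control 1, Tpm1 and Cnn2 were called, and 1451 of 15526 genes in all. Without unstimulated control 2, which is outside this comparison, 4 members and 4465 of 15510 genes in all were called.

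TGF-β1 changed 0 of the 10 contractile genes in control fibroblasts at an adjusted p of 0.05 or less, nor were any called by DESeq2 on all libraries, and 0 had an unadjusted p under 0.05. Genes read as a check of stimulation, Ccn2, Skil and Smad7, rose. Ccn2, encoding connective tissue growth factor, went from 934 ± 326 to 3248 ± 307 CPM (log2 fold change 1.80 ± 0.21). Skil, encoding the Smad corepressor SnoN, rose by 1.65 and Smad7 by 0.97. Of all tested genes 8.37% were called with TGF-β1 in control cells, and 10.9% had every stimulated library above every unstimulated one, which held for 0 of the members.

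Acta2 in control fibroblasts had 588, 761 and 491 CPM without and 583, 809 and 658 CPM with TGF-β1, a log2 fold change of 0.16 with a 95% interval of -0.20 to 0.51. That interval lies below the change of Ccn2. Cald1 differed by 0.35 ± 0.18 (adjusted p = 0.31), Tpm1 by 0.16 ± 0.12 (adjusted p = 0.50) and Tagln by -0.07 ± 0.25 (adjusted p = 0.90). Tpm2 stood at -0.52 ± 0.32 (adjusted p = 0.41), and at 0.03 (adjusted p = 0.95) without unstimulated control 2, the library with 263 CPM. The median log2 fold change was 0.07 for the members and -0.03 for all genes. With the gene length trend removed Acta2 (0.28, adjusted p = 0.042) and Cald1 (0.28, adjusted p = 0.048) were called, against 15% of all genes. Leaving out unstimulated control 2 gave 1 call, Tpm1 at 0.31 (adjusted p = 0.037), with 1690 of 15510 genes called in all, and leaving out unstimulated control 3 gave 2, Cald1 at 0.60 and Tpm2 at -0.81, with 3449 of 15499.

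In Smad7-KO fibroblasts TGF-β1 likewise gave 0 calls among the members in the fit to all libraries and by DESeq2 on all libraries, with 1 member, Acta2, at an unadjusted p under 0.05. Called genes made up 10.2% of all tested genes in this comparison. Ccn2 rose from 327 ± 29.5 to 1582 ± 134 CPM, a log2 fold change of 2.27 ± 0.21. For 5 members, Acta2, Actg2, Tagln, Cnn2 and Tpm1, every stimulated library lay above every unstimulated one, as for 19% of all genes.

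Acta2 had 447, 410 and 385 CPM in unstimulated and 568, 518 and 553 CPM in stimulated Smad7-KO libraries. The groups were clearly apart, with a log2 fold change of 0.40 ± 0.16 and an adjusted p of 0.18. Tagln had 400, 351 and 349 CPM against 450, 433 and 500 CPM, a change of 0.33 ± 0.25 (adjusted p = 0.58), and Tpm1 had 252, 245 and 247 CPM against 286, 283 and 290 CPM, a change of 0.21 ± 0.12 (adjusted p = 0.42). The spread used here is shared by all 12 libraries, and the unstimulated controls varied most. Fitted on only the 6 Smad7-KO libraries, edgeR called these 3 genes, with adjusted p values of 0.00034 for Acta2, 0.0026 for Tagln and 0.0095 for Tpm1 and log2 fold changes of 0.41, 0.34 and 0.22, and DESeq2 called the same 3. That edgeR fit called 3792 of 14401 genes in all, a share near that of the members. In the fit to all libraries without unstimulated control 2, 1 member was called, and 2535 of 15510 genes in all. With the gene length trend removed Acta2 alone was called (0.39, adjusted p = 0.0051), against 17.3% of all genes. Actg2 had 20, 30 and 11 reads in unstimulated and 45, 45 and 32 reads in stimulated libraries, a log2 fold change of 0.95 ± 0.55 (adjusted p = 0.40). Tpm2 (0.03), Cnn1 (0.06), Cnn2 (0.07), Cald1 (0.11), Myl9 (0.17) and Mylk (-0.41) did not pass in any of these fits.

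**Figure D3:**
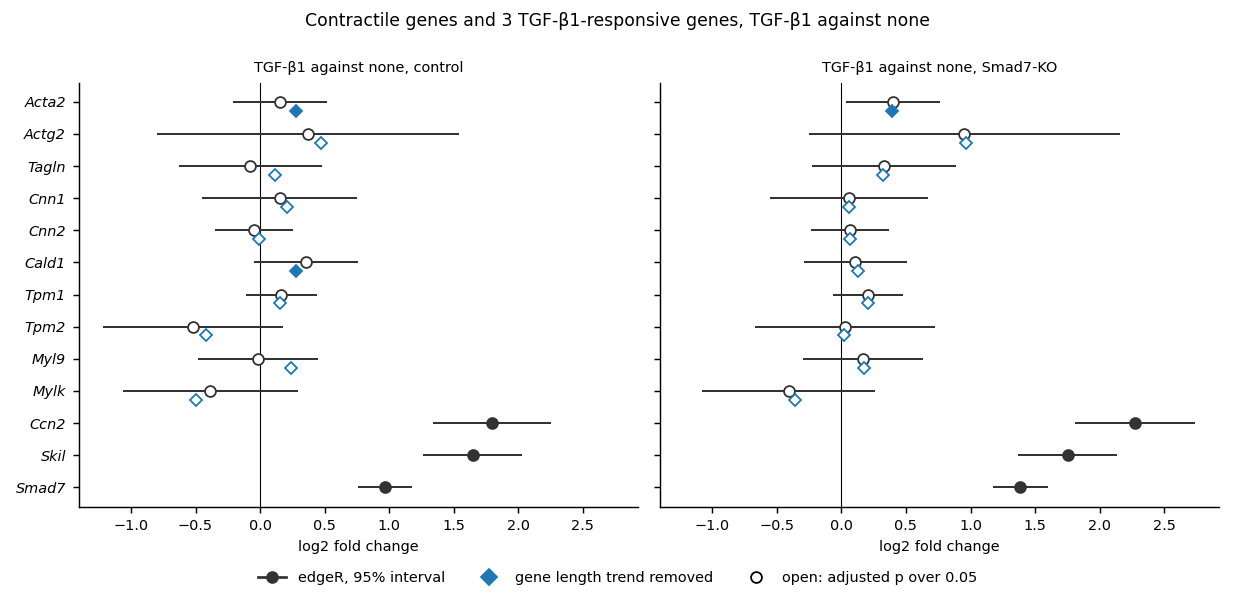
Log2 fold changes with TGF-β1 against no stimulation in control (left) and Smad7-KO fibroblasts (right) for the 10 contractile genes and for Ccn2, Skil and Smad7. Circles are edgeR estimates with 95% intervals, diamonds the estimates for the 10 genes with the gene length trend removed, and filled symbols have an adjusted p of 0.05 or less. The 3 lowermost genes lie at 0.97 to 2.27, whereas all circles of the contractile genes are open.

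Whether the response to TGF-β1 differed between Smad7-KO and control cells was tested by the interaction. This was called for 0 of the 10 members by edgeR and by DESeq2 on all libraries, with 0 at an unadjusted p under 0.05. It was called for 3 of all tested genes (0.0198%). The interaction estimate was 0.24 for Acta2, with a 95% interval of -0.26 to 0.75, and 0.04 for Tpm1, from -0.33 to 0.42. For Tagln it was 0.41, from -0.37 to 1.18. For Acta2 and Tagln these intervals include 0 and also differences as large as the fold change between unstimulated Smad7-KO and control cells. Both Smad7-KO comparisons and both TGF-β1 comparisons use the same libraries in part, so their estimates are not independent.

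Levels of Acta2, Tagln, Tpm1, Tpm2, Cnn2, Cnn1 and Myl9 varied together over the 12 libraries. This is a description of libraries that share groups and the length balance. The Pearson correlation of log2 CPM with Acta2 was 0.94 for Tagln and for Tpm1, 0.87 for Cnn2, 0.86 for Cnn1 and Myl9, and 0.78 for Tpm2, but -0.03 for Cald1 and -0.75 for Mylk. The balance of short and long genes moved with the same members. Its correlation with log2 CPM was 0.98 for Tpm2, 0.92 for Tagln, 0.91 for Cnn2, 0.78 for Tpm1 and 0.76 for Acta2, and it was -0.55 for Cald1 and -0.61 for Mylk, the longest members. Among the tested genes outside the list whose log2 CPM averaged 1 or more, the 5 most like Acta2 were Dnpep (0.98), Psmb2 (0.97), Pdgfa (0.97), Alg5 (0.96) and Mtch1 (0.96). All 5 were called lower in unstimulated Smad7-KO cells, as were 13.7% of all tested genes. Their log2 fold changes were -1.12 for Pdgfa, which encodes a platelet-derived growth factor chain, and -0.73 to -0.45 for the others. These genes were picked for following Acta2 over the same libraries, and Acta2 was itself lower there. Their calls are thus a consequence of the choice and no separate evidence.

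**Figure D4:**
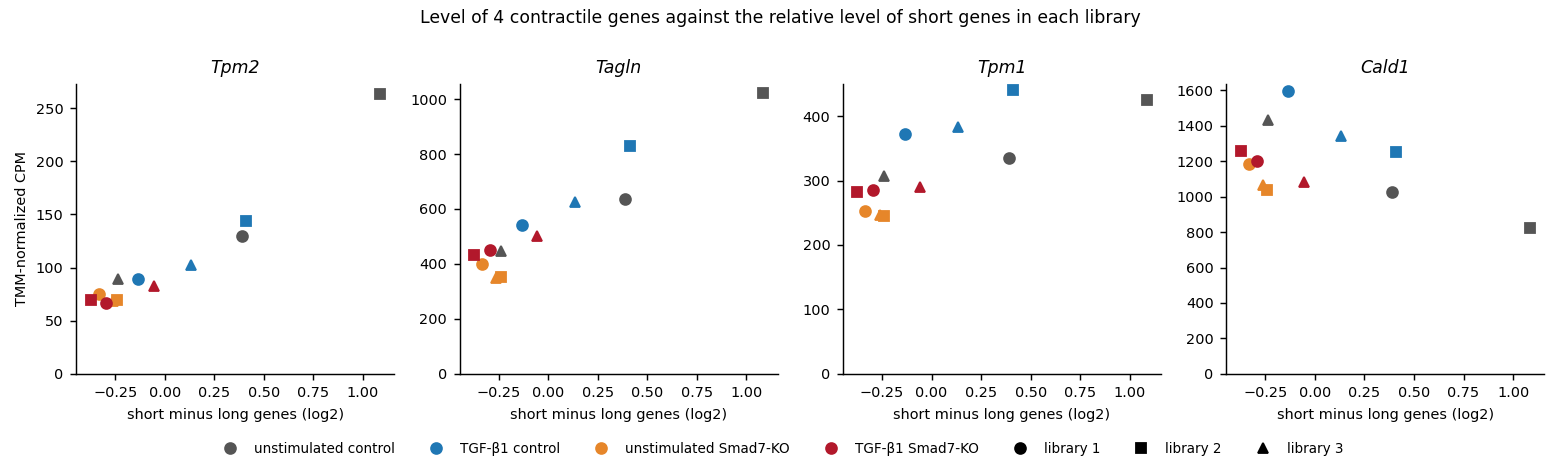
TMM-normalized CPM of Tpm2, Tagln, Tpm1 and Cald1 (vertical axes from 0) against the relative level of short over long genes in each library (horizontal axis, log2), colored by group with symbols for library numbers. Unstimulated control 2 lies alone at 1.09 on the right, highest for Tpm2 and Tagln and lowest for Cald1, while Tpm1 in Smad7-KO libraries lies below controls that have a similar balance.

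Members were also set against their closest relatives as a share of the summed FPKM of their family in each library, which does not depend on library scaling. The share of Tpm1 among Tpm1, Tpm2, Tpm3 and Tpm4 was 16.1 to 16.5% in unstimulated control and 14.8 to 15.4% in unstimulated Smad7-KO libraries, and with TGF-β1 it was 17.6 to 18.0% and 14.8 to 15.6%. Tpm3, another tropomyosin gene, took 27.1 to 31.0% of the family in unstimulated control and 34.6 to 36.3% in unstimulated Smad7-KO libraries. Its own level did not pass the test (-0.11 ± 0.10, adjusted p = 0.39), whereas Tpm4 was lower at -0.43 ± 0.11 (adjusted p = 0.017). Cnn2 held 49.1 to 52.6% of the calponin FPKM in unstimulated control and 45.7 to 48.1% in unstimulated Smad7-KO libraries, the rest being nearly all Cnn3. Acta2 held 10.9 to 12.1% of actin FPKM in unstimulated control and 8.89 to 10.9% in unstimulated Smad7-KO libraries, and these ranges overlapped slightly. With TGF-β1 its share was 11.1 to 12.6% in control and 9.49 to 9.80% in Smad7-KO libraries. Cytoplasmic β-actin, from Actb, held 60.7 to 70.6% over all libraries. Reads of such near-identical genes can be split between them in counting, and the shares were not tested.

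**Figure D5:**
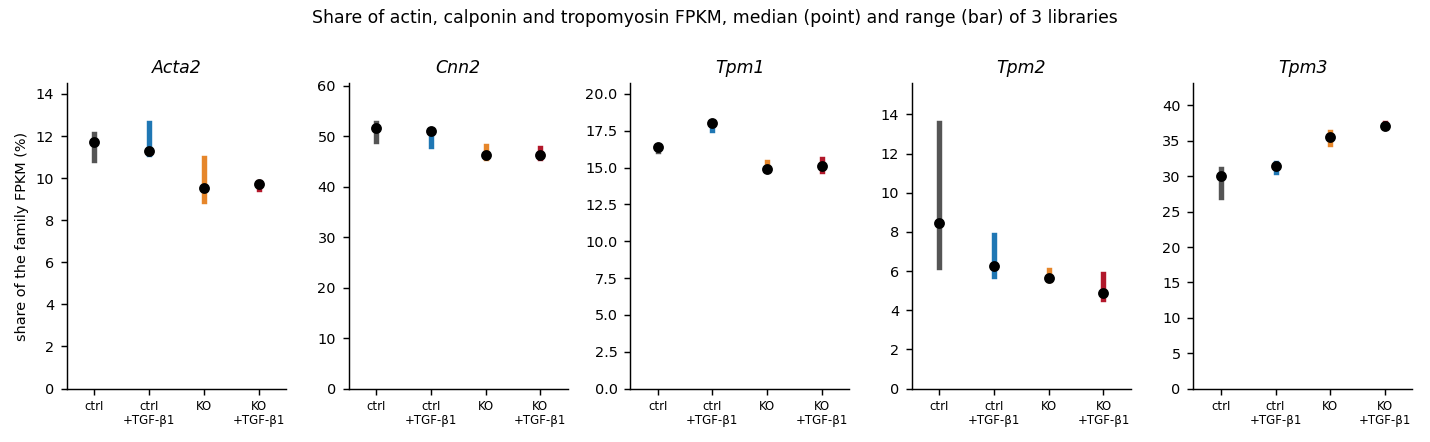
Share (%) of the summed FPKM of the actin genes (Acta2), calponin genes (Cnn2) and tropomyosin genes (Tpm1, Tpm2, Tpm3) in each group, with the median as a point and the range of 3 libraries as a bar, each vertical axis from 0. Tpm1 lies lower and Tpm3 higher in unstimulated Smad7-KO than in unstimulated control libraries, with no overlap.

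Of the transcription factor SRF and its cofactors, 1 of 3 tested genes changed in 1 comparison. Srf averaged 40.7 ± 1.48 CPM in unstimulated control and 42.9 ± 3.57 CPM in unstimulated Smad7-KO libraries, a log2 fold change of 0.08 ± 0.09 (adjusted p = 0.55), and it did not pass in any comparison. Mrtfb, a cofactor of SRF, was higher in unstimulated Smad7-KO cells at 50.1 ± 3.16 against 32.6 ± 9.34 CPM (0.62 ± 0.21, adjusted p = 0.047), opposite to the 5 members. With the gene length trend removed 0 of these 3 regulators were called in that comparison. In the same fit 1 was called higher in Smad7-KO against control with TGF-β1, when 3513 of 15150 genes were called in all. Mrtfa differed by 0.37 ± 0.21 (adjusted p = 0.20). Myocd, the muscle-restricted cofactor myocardin, had at most 15 reads in a library and was not tested.

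Among 24 other genes known as SRF or MRTF targets, 10 were lower and 0 higher when unstimulated Smad7-KO was compared with control, against 13.7% of all tested genes called lower, and the list's median log2 fold change was -0.29 against -0.02 for all genes. After removal of the length trend 10 were lower and 1 higher. The list was written with earlier results of these data known, so these counts are a description and not separate evidence. The largest changes were those of Acta1, the skeletal α-actin gene (-3.28 ± 0.71, adjusted p = 0.0092, with 2 to 9 reads per Smad7-KO library), Csrp2, encoding a smooth muscle LIM protein (-2.20 ± 0.24, adjusted p = 0.00022), and Tuft1, encoding tuftelin (-0.91 ± 0.13, adjusted p = 0.0012), followed by Fhl2, encoding another LIM protein (-0.91 ± 0.16, adjusted p = 0.0037). With TGF-β1, 7 were lower and 0 higher in Smad7-KO cells, against 7.23% of all genes called lower, among them Tuft1 at -0.82, Fhl2 at -0.64 and Csrp2 (adjusted p = 0.015). In response to TGF-β1, 2 rose and 1 fell in control cells, and 4 rose and 0 fell in Smad7-KO cells, against 8.37% and 10.2% of all genes called in either direction, so that the share in control cells was near that of all genes. With the gene length trend removed 6 rose and 1 fell in control cells and 9 rose and 1 fell in Smad7-KO cells, against 15% and 17.3% of all genes. Csrp2 rose from 27.3 ± 9.51 to 52.9 ± 8.91 CPM in control and from 5.91 ± 1.103 to 26.5 ± 2.89 CPM in Smad7-KO cells, and Pdlim7, encoding a PDZ and LIM protein of actin fibers, rose by 0.53 and 0.78. Fhl1 was the 1 that fell in control cells, by 0.46 on the log2 scale, while Acta1 rose by 3.06 and Smtn, encoding smoothelin, by 0.48 in Smad7-KO cells.

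The 8 tested paralogs of the members, which in part stand in the list of SRF targets too, included 2 that were lower in unstimulated Smad7-KO cells, Acta1 and Tpm4, and 0 with TGF-β1. Of all tested genes 13.7% and 7.23% were called lower in these 2 comparisons.

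Markers of other cells moved with the same groups. The counts of calls below stand against 2080 genes lower and 1827 higher of all 15150 tested in unstimulated Smad7-KO cells. Of 8 endothelial markers 5 were lower and 1 higher in unstimulated Smad7-KO cells, and their summed level was 267 to 314 CPM in unstimulated control, 277 to 317 CPM in TGF-β1 control, 48.5 to 57.9 CPM in unstimulated Smad7-KO and 45.2 to 46.2 CPM in TGF-β1 Smad7-KO libraries. Of 8 tested smooth muscle and pericyte markers, which include Smtn of the SRF target list, 4 were lower, and the sum was 105 to 145 CPM in unstimulated control, 202 to 219 CPM in TGF-β1 control, 75.6 to 82.7 CPM in unstimulated Smad7-KO and 149 to 153 CPM in TGF-β1 Smad7-KO libraries. Much of the rise of this sum with TGF-β1 came from Mcam. Its mean went from 38.5 to 110 CPM in control and from 8.77 to 73.9 CPM in Smad7-KO libraries. Of the 8 markers, 3 had a log2 fold change below 0 with TGF-β1 in control and 1 in Smad7-KO cells. Myh11, the smooth muscle myosin that defines these cells, had 29 to 114 reads in a library. Macrophage markers were detected in these cultures labelled as fibroblasts, with sums of 13143 to 20675, 12775 to 14857, 18814 to 20671 and 17876 to 20133 CPM in the same order of groups, and 5 of 7 were higher in unstimulated Smad7-KO cells. Most of these sums came from Lyz2, encoding lysozyme, which averaged 12409 CPM in unstimulated control and 14324 CPM in unstimulated Smad7-KO libraries. Lyz2 was not among the 5 called, with a log2 fold change of 0.21 ± 0.18 (adjusted p = 0.39) and overlapping groups. Fibroblast markers, 2 higher and 2 lower of 9, summed to 7332 to 11352 CPM in unstimulated control and 9343 to 10007 CPM in unstimulated Smad7-KO libraries. Of the cardiomyocyte markers 4 of 8 were tested, 2 of these were lower in unstimulated Smad7-KO cells, the list's sum was 18.2 to 77.9 CPM over all libraries, and Nppa had at most 1 read. In these bulk samples, fewer cells of a type and less RNA per cell cannot be told apart, and the part of these cell types in the contractile gene differences was not tested.

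Overlapping annotation touched 2 members. Exons of Tagln share 1241 bases, 62.4% of its exonic bases in GENCODE M21, with an antisense gene on the opposite strand, and 108 bases with Pcsk7, which had 314 to 847 reads. Exons of Mylk share 548 and 224 bases with antisense genes. The strand setting of the read counting is not given in the sources used here, so reads of these stretches cannot be assigned with certainty.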

How the data were processed

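Poly(A) RNA from 12 cultures was sequenced as paired-end reads. For each gene the authors deposited a raw read count and an FPKM value. Tools named in the submitters' processing notes are CASAVA, TopHat2 2.0, Cufflinks 2.1.1 and HTSeq 0.6.1, with the builds mm10 and GRCm38.p6. Dividing the deposited counts by gene length and by library total returned the deposited FPKM for all 35275 genes (tolerance 1e-06).

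A single model of all 12 libraries was fitted to the counts with edgeR 4.0.16 in R 4.3.3 (filterByExpr with a minimum count of 10, TMM, robust quasi-likelihood), with Benjamini-Hochberg adjustment over 15150 genes and a threshold of 0.05. With 3 libraries against 3, the smallest two-sided p of an exact permutation test is 0.1. Alternatives were DESeq2 1.42.0 and edgeR on only the compared libraries, DESeq2 on all libraries, its size factors, no filter, limma 3.58.1 on log2(FPKM + 1), the replicate number as a block, removal of each library's length trend by loess (span 0.3), and leaving out each library. Leaving out both control libraries numbered 2, or libraries outside a comparison, was added after seeing the data. Procedures were tested on simulated data. Counting precision is limited only for Actg2, Mylk and Cnn1. Replicate libraries differed by more than counting noise, with a chi-square per gene of 3.15 or more.

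The members and gene lists were chosen with earlier results of these data known. Named were all members, Smad7, Skil, Ccn2, SRF and its cofactors, up to 3 called genes of each further list reported per comparison by size, and the 5 genes most correlated with Acta2. Tpm3, Actb, Cnn3, Pcsk7, Mcam, Myh11, Lyz2, Nppa and Smtn were named beyond that rule where a count or share called for it. Promoter letters came from RefSeq (GRCm38.p6) and overlaps from GENCODE M21, in which 99.84% of the 34490 gene identifiers found overlapped the deposited interval. A gene and a gene list that entered the fits are not reported here.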

Additional observations from a re-analysis of the deposited data

How the results depend on the processing

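In unstimulated Smad7-KO against control, 5 genes were called, and 0 when edgeR was given just the 6 compared libraries, a fit that called 660 of 14524 genes against 3907 of 15150 in the fit to all libraries. Leaving out 1 library gave 0 to 7 calls, while 1535 to 7979 genes were called in all. With TGF-β1, 1 gene was called in Smad7-KO against control, 2 by DESeq2 on all libraries and by limma, 4 by DESeq2 or edgeR on only the compared libraries, 3 with the gene length trend removed, 2 without both control libraries numbered 2, and 4 without these and with the length trend removed. Leaving out 1 library gave 0 to 4, with 883 to 4465 genes called in all. DESeq2 on all libraries called 2787 genes in all and limma 1804 of 12490. Without both control libraries numbered 2 and with the length trend removed, 4227 of 15403 genes were called. For TGF-β1 in control cells, 0 genes were called, 2 with the length trend removed, and 0 to 2 on leaving out 1 library, with 825 to 3449 genes called in all. For TGF-β1 in Smad7-KO cells, 0 genes were called, 3 by DESeq2 or edgeR on only the compared libraries, 1 with the length trend removed, and 0 to 1 on leaving out 1 library, with 985 to 2535 genes called in all. The interaction had 0 calls throughout. The log2 fold change of Cald1 in unstimulated cells was 0.00, and -0.29 (adjusted p = 0.0097) without both control libraries numbered 2 and with the length trend removed. The cause of these shifts was not tested. Leaving out both control libraries numbered 2, or a library outside the comparison, was chosen after seeing the data. Mylk could not be tested in limma. Over all genes, DESeq2 and edgeR on just the compared libraries called 4623 and 4453 genes against 1962 in Smad7-KO against control with TGF-β1, and 3419 and 3792 against 1550 for TGF-β1 in Smad7-KO cells. DESeq2 on just the unstimulated libraries called 2282 against 3907, and edgeR on just the control libraries 391 against 1268. With the length trend removed 3513, 2278 and 2621 genes were called in the last 3 of the 4 comparisons, and 13 for the interaction, where DESeq2 called 14 and the fit to all libraries 3.

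The labels number the libraries alike in each group. Same-numbered libraries correlated between -0.357 and 0.524 in their deviations from the group means, not above 0.1 for every pair in any 2 groups, so they were taken to share only a number. In 1 of 6 pairs of groups every library correlated best with its own number. The replicate block gave 5, 1, 0, 0 and 0 calls in the 5 comparisons, the same as without it. Over all 15150 genes it gave 3222, 1625, 1107, 1323 and 0 calls. With the length trend also removed, it gave 3 calls in Smad7-KO against control with TGF-β1, with 3248 genes called in all. For TGF-β1 in Smad7-KO cells it then gave 1 call, with 2397 genes called in all. For TGF-β1 in control cells the block took the 2 calls made with the length trend removed to 0, with 2040 genes called in all.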
